A study of Mus musculus with 9 samples.

Results

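The proteasome is the main protease of the cytosol and nucleus, and its subunit genes were followed here through 9 RNA sequencing libraries of mouse haematopoietic stem cells. The members were taken by symbol: every gene named Psma, Psmb, Psmc or Psmd with a number, and Psme1 to Psme4. This gave 43 of the 21939 genes in the count table, and all 43 were among the 15127 genes tested. They were sorted by role into 16 core subunits (8 alpha and 8 beta), 3 immunoproteasome subunits, 20 subunits or assembly factors of the regulatory particle (6 ATPases and 14 others) and 4 activators.

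The libraries came from the long-term haematopoietic stem cell compartment (LT-HSCs; gated as Lin- Sca1+ cKit+ CD34- Flt3-) of C57BL/6 bone marrow. Young donors were 10 to 16 weeks old and aged donors over 80 weeks, and the group aged+Ri held aged cells that had been given 100 µM Rhosin, which blocks the GTPase RhoA, a regulator of the actin cytoskeleton. All 3 groups, of 3 libraries each, spent 16 h at 3% oxygen and 5% carbon dioxide in a salt solution with 10% serum. The labels name no vehicle for the cells without the inhibitor, and they do not say how many mice each library holds, so p-values measure the spread between these samples, part of which may be technical.

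In the 26S proteasome, a barrel of stacked alpha and beta rings holds the catalytic sites inside, and the regulatory particle on its end binds ubiquitin chains, removes them, and unfolds the substrate with a ring of ATPases. In immune cells and under interferon, 3 alternative catalytic subunits replace the constitutive ones and form the immunoproteasome, whose cuts favour peptides for MHC class I. The activators PA28 and PA200 are caps that open the barrel without ATP. HSCs are known for a low rate of protein synthesis and for their dependence on protein quality control. When the proteasome is blocked, the transcription factor NRF1 (gene Nfe2l1) is known to raise subunit genes through antioxidant-response-type elements in their promoters, whereas interferon acts through elements of repeated GAAA.

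Letters of those element types were searched on both strands of the 300 bases around each start site (250 before it and 50 after) in the RefSeq promoter table for GRCm38.p6, where 36 of the 43 members were matched with 39 windows. The letters TGACNNNGC stood in 6 member windows (15.4%) and in 12.4% of all 32851 windows. The letters GAAA, any 2 bases and GAAA again stood in 4 member windows (10.3%) and in 3.44% of all, and Psmd9 held both, at places that do not overlap. Of the 3 immunoproteasome genes, 0 had either motif in this window. The stretches below show the match in capitals for a catalytic subunit pair (Psmb5 and Psmb6), an ATPase (Psmc6), a subunit of the lid (Psmd12), the PA200 activator (Psme4) and a PA28 subunit (Psme1), read 5′ to 3′ on the strand of the gene. Each is a description of letters, not a site shown to be bound.
Psmb5, chr14:54618023-54618052, minus strand: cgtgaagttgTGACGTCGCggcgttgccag
Psmb6, chr11:70525338-70525367, plus strand: ctaaagagagTGACGGAGCgctttacgacg
Psmc6, chr14:45329587-45329616, plus strand, reverse complement: ccagccagtaGCTAAGTCAggcattgctca
Psmd12, chr11:107479278-107479307, plus strand, reverse complement: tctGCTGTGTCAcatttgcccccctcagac
Psme4, chr11:30771758-30771787, plus strand, reverse complement: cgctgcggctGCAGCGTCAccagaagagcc
Psme1, chr14:55578493-55578522, plus strand, reverse complement of the GAAA pair: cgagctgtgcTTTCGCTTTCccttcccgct

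Library totals were between 34358101 and 72503142 counts. HSC markers were found in every library (16 of 16 in the table), with summed counts of 2581 to 4713 CPM in young (sums are scaled to the library total without further normalisation), 2976 to 3891 in aged and 1556 to 3194 in aged+Ri libraries. Several libraries stood apart. Ddx3y, a Y-chromosome gene, was at 65.73 and 182.5 CPM (counts scaled to library size, normalised) in young 2 and young 3 and had at most 1 count in each other library, and Iglc2, a B cell gene, was at 13370 CPM in young 1. The 18 myeloid markers summed to 11570 CPM in aged 3, against 465.2 and 649.2 in the other aged libraries, and to 3859 in young 3. The sum was 79.57 to 148.3 in aged+Ri libraries, where Ly6g had 0 counts and Csf1r and Hk3 at most 3 in each library. By label, sequencing batch 1 held aged 1 and aged+Ri 1. Batch 2 held young 2, aged 2 and both other aged+Ri libraries, and batch 3 held young 3 and aged 3. Young 1 was sequenced in batches 1 and 3.

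Core subunits gave most of the proteasome message. Per kilobase of transcript, a scale that depends on the transcript chosen for each gene, the beta1 catalytic subunit gene Psmb6 was highest in every group, at 1203 ± 331.6 CPM per kb in young, 1364 ± 208.4 in aged and 1293 ± 200.6 in aged+Ri cells (SD, n = 3). Psmb2 (beta4) came next, at 571.2 ± 112 in young cells, followed by Psma1 at 507.8 ± 118.3, Psmb1 at 475.9 ± 131.1 and Psma7 at 421.2 ± 90.28, and these 4 neighbours lay within each other's spread. Psma2 and Psma3, at 805.2 and 694.7 CPM in young cells, were divided by long transcripts of 2911 and 2846 bases. Their lower places on this scale rest on that choice. Leaving out 2 genes named for other tissues, the median level per kb in young cells was 277 for 7 alpha subunits and 273 for 7 beta subunits. For the 6 ATPases it was 63.1, for the 14 other regulatory members 38.5, and for the 3 immunoproteasome subunits 77.9 CPM per kb. In aged+Ri cells the ATPase median was 165 and the alpha median 315 CPM per kb. Psmb8 (beta5i) was the most abundant immunoproteasome subunit in each group, at 242.6 ± 70.68 in young cells, above its constitutive counterpart Psmb5 at 120.5 ± 55.92.

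**Figure D1:**
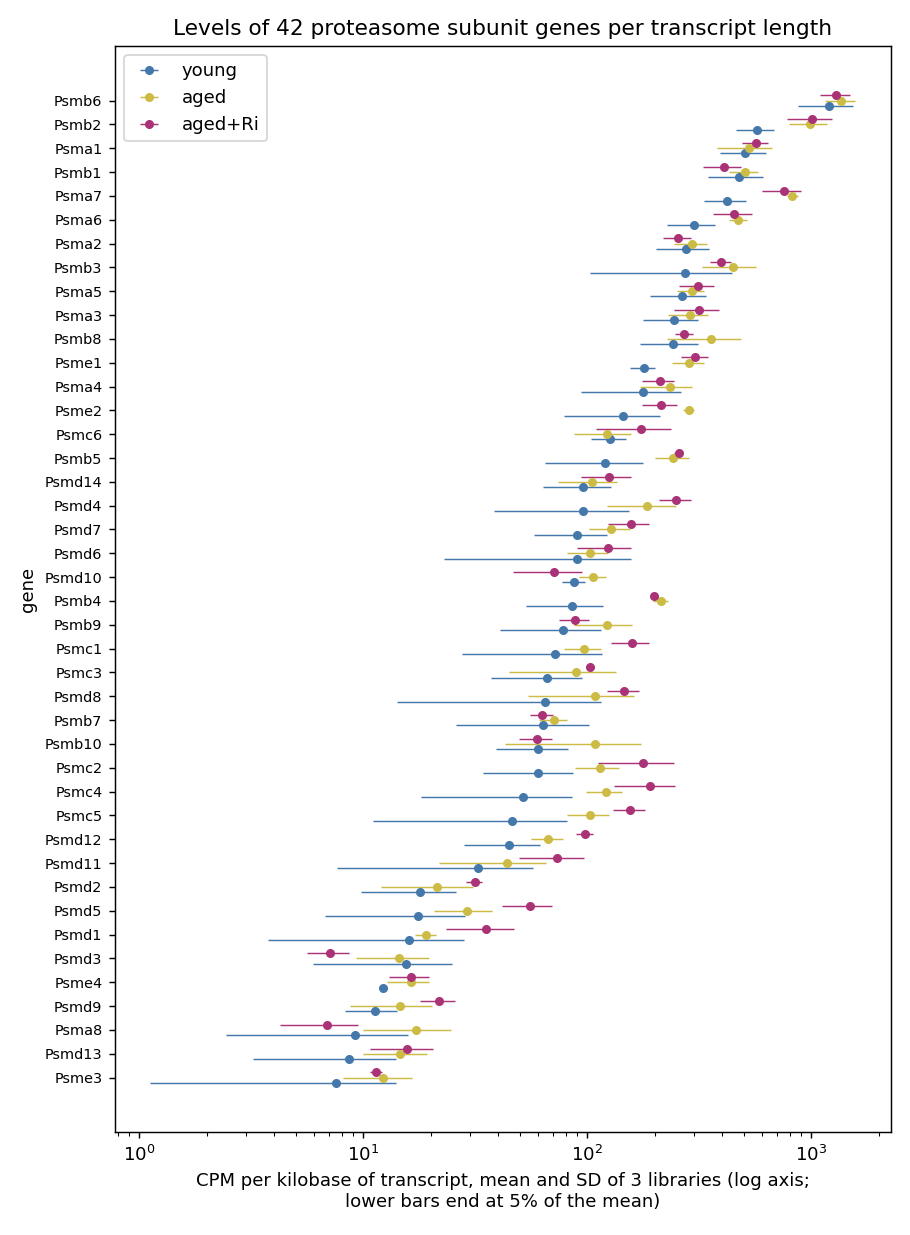
Mean level of 42 proteasome subunit genes in CPM per kilobase of transcript (log axis), with points for young, aged and aged+Ri cells and bars for the SD of 3 libraries. Psmb6 is at the top in all groups, most alpha and beta subunits lie above the regulatory subunits, and Psmb11 (under 0.1 CPM per kb) is not drawn.

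The 2 genes named for other tissues were low. Psmb11, the thymus-specific beta5t subunit, was between 0 and 0.3707 CPM in every library, with 0 counts in aged+Ri 1. Psma8, a testis-specific alpha subunit, was at 28.57, 9.846 and 8.069 CPM in young, 23.18, 43.36 and 20.93 in aged, and 7.159, 11.63 and 16.07 in aged+Ri libraries. The 3 aged+Ri values of Psma8 lay below the 3 aged ones. Psmb11 is counted among the members below, but no fold change of it is printed because its counts are near 0.

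Summed over the 43 genes, proteasome message took a larger share of the library in aged than in young cells. The sum was 9329, 8199 and 9860 CPM in the young libraries, 11310, 12440 and 14110 in the aged, and 12950, 10840 and 12870 in the aged+Ri libraries. Every aged library was above every young one, and so was every aged+Ri library, while the aged and aged+Ri libraries overlapped. The core sum was 6536, 5570 and 6333 in young, 7506, 8655 and 8123 in aged, and 7509, 6508 and 7827 in aged+Ri libraries, where aged+Ri 2 lay just under young 1. The regulatory sum was 1827, 1745 and 2312 in young, 2393, 2457 and 3697 in aged, and 4145, 3085 and 3768 in aged+Ri libraries. It was thus higher in each aged library than in any young one. With the inhibitor, 2 libraries were above all aged ones and aged+Ri 2 was below aged 3.

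**Figure D2:**
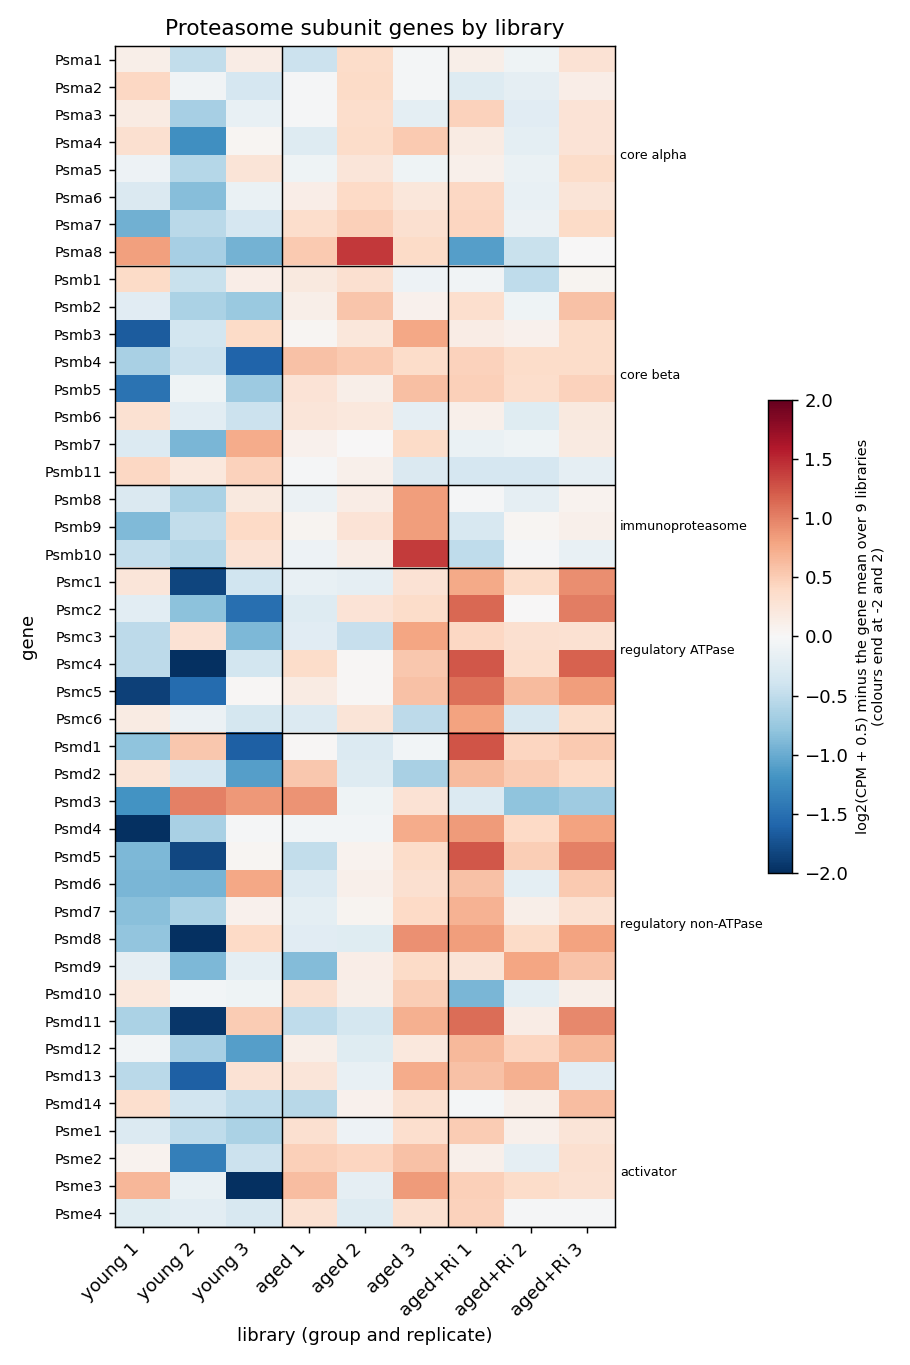
Heat map of the 43 genes (rows, grouped by role) in 9 libraries (columns); colour is log2(CPM + 0.5) minus the gene's mean over the 9 libraries. Young columns are mostly blue, the 3 immunoproteasome rows are reddest in aged 3, and most regulatory rows are reddest in aged+Ri 1 and aged+Ri 3.

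The comparison of aged with young cells asks what differs with the age of the donor. Young 2 and young 3 held message of the Y-chromosome gene Ddx3y, and no aged or aged+Ri library had more than 1 count. Donor sex was thus not balanced with age, and sex and age cannot be told apart in either comparison with the young group. No single subunit gene passed the test over all genes, although the log2 change was above 0 in 40 of the 43 (median 0.51). Over all 15127 genes the median was -0.126 and 45.3% were positive, and among 3601 genes above 50 CPM the median was 0.047. After Benjamini-Hochberg adjustment over all genes, the quasi-likelihood test of edgeR called 0 of 43 members, against 0.0331% of all genes (5 genes), and the smallest adjusted p of a member was 0.173. At an unadjusted p under 0.05, 11 members were higher and 0 lower, against 6.09% of all genes higher and 10.1% lower. In 8 members all aged libraries were above all young ones and in 1 (Psmb11) below, against 8.58% and 16.1% of all genes. DESeq2 called 1 member, Psmb4 (log2 change 1.24, DESeq2 adjusted p = 0.0165), against 4.92% of all genes.

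Among the core subunits, Psmb4, Psma7, Psmb5 and Psmb2 had the smallest unadjusted p. Psmb4, the beta7 subunit (chromosome 3, 94884093 to 94886961, GRCm38), was at 113.5, 131.5 and 58.37 CPM in young and 268.1, 256.8 and 229.4 in aged libraries. Its log2 change was 1.31 ± 0.33 (SE; edgeR adjusted p = 0.173). The lowest aged library was above the highest young one, and the aged libraries were close to each other. Psma7, the alpha4 subunit, was at 296.4, 398.9 and 459.6 CPM in young and 739, 801.7 and 719.9 in aged libraries (log2 0.97 ± 0.27, edgeR adjusted p = 0.179). Psmb5, the beta5 subunit with chymotrypsin-like activity and the main target of bortezomib, was at 60.95, 161.1 and 102.9 CPM in young and 207.5, 186.1 and 260 in aged libraries (log2 1.01 ± 0.35, edgeR adjusted p = 0.222). Psmb2 (beta4) was at 600.3, 451.4 and 420.3 CPM in young and 755.7, 1034 and 745.2 in aged libraries. All 4 genes, and Psma6 (alpha1) besides, had no overlap between the groups. Of the 14 core subunits without Psma8 and Psmb11, all 14 were above 0 on the log2 scale, with a median of 0.315 and a range from 0.0484 for Psma1 to 1.31 for Psmb4. The 2 other constitutive catalytic genes, Psmb6 and Psmb7, had changes of 0.18 and 0.15.

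In the regulatory particle, the log2 change in aged cells was above 0 for 18 of 20 members (median 0.436, or 0.675 for the 6 ATPases). Psmc4 (Rpt3) was at 96.43, 19.08 and 107.8 CPM in young and 178.7, 140.5 and 202.3 in aged libraries (log2 1.22 ± 0.51, edgeR adjusted p = 0.268). It was the 1 regulatory member without overlap, and its young 2 value was far below the other young ones. Psmc5 (Rpt6) was at 30.23, 38.08 and 113.6 CPM in young and 125, 113.3 and 167.5 in aged libraries (log2 1.16 ± 0.45). Psmc5 was held back by young 3, which lay at the level of aged 2, and without young 3 its change was 2.00 (edgeR adjusted p = 0.028). Psmc2 (Rpt1) was at 156.6, 102.9 and 63.36 CPM in young and 151.7, 220.3 and 235.4 in aged libraries. Psmd4 (Rpn10), a receptor for ubiquitin chains, was at 49.24, 130.7 and 201.9 CPM in young and 198.1, 197.8 and 343.2 in aged libraries, so that young 3 lay among the aged values. Psmd3 (Rpn3) and Psmc6 (Rpt4) were the 2 members with a negative change, of -0.09 and -0.05.

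The activators had log2 changes of 0.404 for Psme4 (PA200) to 0.969 for Psme2. Psme1 and Psme2 encode the alpha and beta subunits of PA28, which works with the immunoproteasome. Psme1 was at 226.2, 192.3 and 176.8 CPM in young and 344.8, 256.8 and 346.7 in aged libraries (log2 0.67 ± 0.27, edgeR adjusted p = 0.258). Psme2 was at 201.5, 73.97 and 142.3 CPM in young and 266.7, 260.4 and 290.4 in aged libraries (edgeR adjusted p = 0.231). Neither gene overlapped between the groups. Psme3, the nuclear PA28 gamma subunit, ranged from 2.595 CPM in young 3 to 36.84 in young 1, and its aged values of 20.42 to 42.06 overlapped with them.

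The log2 change of all 3 immunoproteasome subunits was above 0 in aged cells (median 0.658), and 0 of 3 were without overlap. Psmb8 (beta5i; chromosome 17, 34197721 to 34201454) was at 371.7, 293.3 and 519.9 CPM in young and 417.9, 506 and 816.1 in aged libraries (log2 0.55 ± 0.31, edgeR adjusted p = 0.389). Psmb9 (beta1i; chromosome 17, 34181987 to 34187764) was at 66.53, 87.26 and 162.1 in young and 128.2, 149.5 and 220.6 in aged libraries (log2 0.66 ± 0.38). Psmb10 (beta2i; chromosome 8, 105935735 to 105938444) was at 65.23, 61.09 and 111.5 in young and 84.7, 100.5 and 239.5 in aged libraries (log2 0.84 ± 0.43). Each subunit was highest in young 3 among the young and in aged 3 among the aged libraries. This was not particular to them: the regulatory sum was also highest in these 2 libraries (2312 and 3697 CPM), whereas the core sum was highest in young 1 and aged 2. The same 2 libraries had the highest sums of the 18 myeloid markers in their groups, with Elane, a neutrophil protease, at 976.3 CPM in young 3 and 4236 in aged 3. Macrophage and dendritic cell markers (255.4 and 1424 CPM) and mast cell and basophil markers (120.8 and 312.5) were highest there too. The T, NK and B cell sum and the erythroid sum were highest in young 1 among the young. Among the aged libraries the T, NK and B cell sum was highest in aged 3 (931.5 CPM, against 188.6 and 735.4). The erythroid sum there was highest in aged 1 (80.74 CPM) and lowest in aged 3 (26.63 CPM). In bulk samples fewer cells of a type and less RNA per cell cannot be told apart, and the part of these markers in the result was not tested. Without aged 3 the median of the 3 genes was 0.291, and without young 3 it was 1.12.

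**Figure D3:**
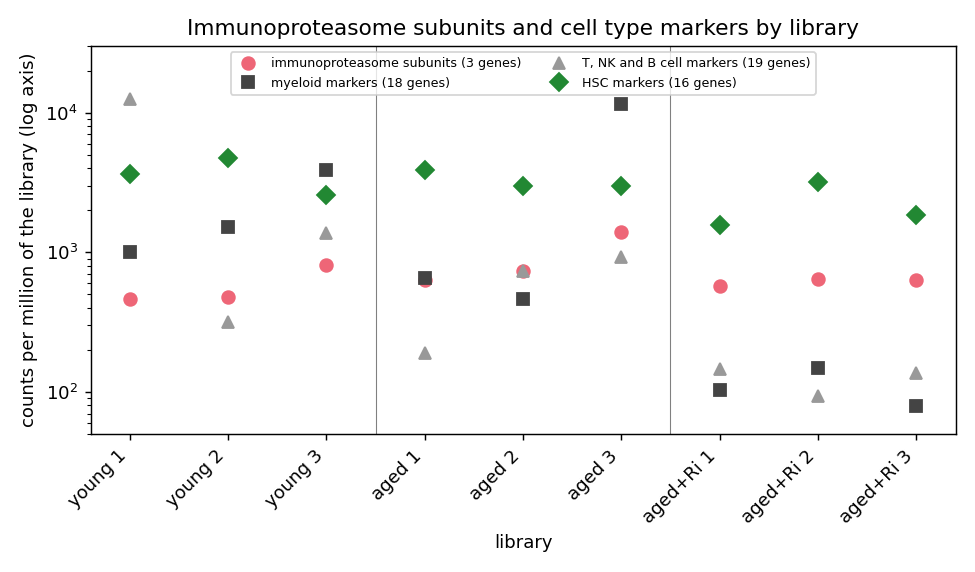
Summed CPM of the library total (log axis) for 3 immunoproteasome subunits and for markers of myeloid cells, of T, NK and B cells, and of HSCs in each library. Immunoproteasome and myeloid sums are both highest in aged 3 (1407 and 11570), and in aged+Ri libraries the myeloid sum is between 79.57 and 148.3 while the immunoproteasome sum lies between 575.4 and 641.3.

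Within sequencing batch 2, which holds 1 young and 1 aged library, the median log2 change of aged against young was 0.786 over all members, 0.891 for core, 0.856 for regulatory and 0.774 for immunoproteasome genes. Within batch 3, also 1 against 1, it was 0.558 over all members, 0.334 for core, 0.567 for regulatory and 0.65 for immunoproteasome genes. Of the 16 core genes, 15 were positive within batch 2 and 10 within batch 3. For the activators the 2 batches gave 0.191 and 1.00. Young 1, which had 0 counts of Ddx3y, gave medians of 0.144 for core, 0.755 for regulatory and 1.17 for immunoproteasome genes when it alone stood for the young group (chosen after seeing the data, and assuming that young cells vary like the other groups). That fit holds 1 young library, so only its effect sizes are given. Aged libraries also had fewer genes with a count, 15024 to 17987 against 20129 to 21213 in young ones, and less mitochondrially encoded message, 25690 to 35370 CPM against 41370 to 46780. The part of these differences in the result was not tested.

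The comparison of aged cells with and without Rhosin asks what the RhoA inhibitor changes in aged LT-HSCs. Again 0 of 43 members passed, and the class medians differed. The median log2 change was 0.522 for the 20 regulatory members, 18 of them positive, -0.115 for the 16 core subunits, 5 of them positive, and -0.474 for the 3 immunoproteasome subunits, 0 of them positive. Over all 43 members the median was 0.09 and 25 were positive (58.1%), against 47.2% of all genes, whose median was -0.0606. edgeR's adjusted p was under the threshold for 0.0% of all genes, and the smallest of a member was 0.553. At an unadjusted p under 0.05 there were 0 members, against 4.24% of all genes higher and 4.89% lower, and DESeq2 called 0 members, against 2.12% of all genes. In 5 members all aged+Ri libraries were above all aged ones and in 3 below, against 7.87% and 8.66% of all genes.

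The 5 members above were all from the regulatory particle. Psmd5, an assembly chaperone of the ATPase ring, was at 89.01, 132.8 and 162 CPM in aged and 299, 177.8 and 254.5 in aged+Ri libraries (log2 0.93 ± 0.44, edgeR adjusted p = 0.553). Psmd1 (Rpn2), the scaffold of the base, was at 64.45, 52.47 and 60.82 CPM in aged and 152.3, 85.42 and 91.15 in aged+Ri libraries (log2 0.89 ± 0.50, edgeR adjusted p = 0.636). Psmc5 was at 240.2, 173.7 and 199.1 CPM with the inhibitor, each above its highest aged value of 167.5. For Psmd1 the lead came mostly from aged+Ri 1, whereas the margins of Psmc5 and Psmd5 were narrow at aged+Ri 2. Psmd12 (Rpn5) was at 134.5, 104.1 and 142.9 CPM in aged and 195, 167 and 193.8 in aged+Ri libraries, and Psmc1 (Rpt2) at 138.5, 136.2 and 188.2 against 260.3, 198.1 and 295.2. Psmc1 had non-whole counts in all 9 libraries, which can come from reads shared between loci, a point on which the sources used here say nothing. Psmd1 overlaps exons of Gm21972 on its own strand and of Htr2b on the opposite strand, and with no strand setting given in the sources used here its reads may include theirs.

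The 6 ATPase genes had like log2 changes, between 0.20 for Psmc3 (Rpt5) and 0.70 for Psmc1, with an SD between genes of 0.185. Psmc2 and Psmc4 varied among the aged+Ri libraries, at 401.9, 182 and 369.4 CPM and at 327.7, 177.4 and 314.5 CPM. In both, aged+Ri 2 lay within the aged range and aged+Ri 1 and aged+Ri 3 above it. Among the other regulatory members, Psmd3 (Rpn3) went against the rest, at 43.41, 21.81 and 28.15 CPM in aged and 19.03, 12.96 and 13.92 in aged+Ri libraries (log2 -1.02 ± 0.61, edgeR adjusted p = 0.659). Psmd10, the assembly chaperone gankyrin, was at 152.3, 132 and 172.7 against 64.54, 106.2 and 133.1 CPM, with an overlap at aged+Ri 3 (log2 -0.59 ± 0.33).

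Without Psma8 and Psmb11, the 14 core subunits had log2 changes between -0.304 for Psmb1 and 0.13 for Psma3, a median of -0.0876 and an SD between genes of 0.135. Psmb4 was at 244.2, 230.2 and 230.3 CPM with the inhibitor, within or beside the aged values, and Psma7 at 776.4, 531.9 and 754.3. Psmb5 was at 236.7, 217.3 and 235.1 CPM, inside the aged range. None of these 14 genes was without overlap, and the change of -1.33 for Psma8 (edgeR adjusted p = 0.59) came from a gene under 50 CPM in every library.

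**Figure D4:**
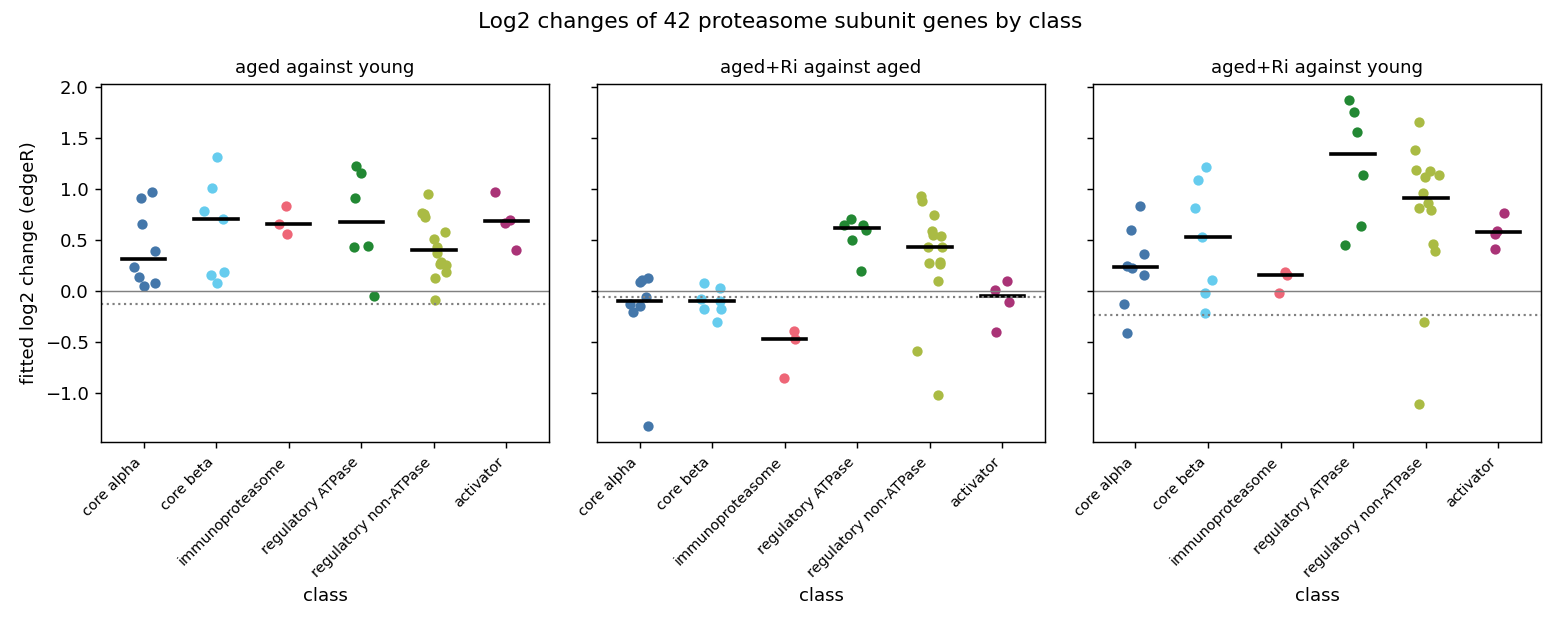
Fitted log2 change of 42 proteasome subunit genes (points; Psmb11 not drawn) by class in the 3 comparisons, with black bars for class medians and a dotted line for the median of all genes tested. In aged+Ri against aged, the regulatory classes lie mostly above 0, the core near 0 and the 3 immunoproteasome genes below 0; the middle panel shares its aged libraries with the left panel and its aged+Ri libraries with the right.

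The 3 immunoproteasome subunits had log2 changes of -0.39 ± 0.31 for Psmb8, -0.47 ± 0.38 for Psmb9 and -0.85 ± 0.43 for Psmb10 with the inhibitor (edgeR adjusted p = 0.795, 0.794 and 0.589). Psmb8 was at 446.4, 400.6 and 477.7 CPM, Psmb9 at 99.02, 126.7 and 133, and Psmb10 at 63.84, 89.78 and 81.55 in the aged+Ri libraries. All 3 overlapped with the aged group, whose aged 3 library was far above the other two. Without aged 3 the median change was -0.261, and without aged 1 it was -0.666. Beside this, the sum of 19 T, NK and B cell markers was 188.6 to 931.5 CPM in aged and 93.57 to 146.6 in aged+Ri libraries, where Cd8a and Gzmb had 0 counts. The sum of 14 macrophage and dendritic cell markers was 161.6 to 1424 in aged and 186.8 to 249.5 in aged+Ri libraries, with Siglech at 0 counts in the latter. C1qa had 0 counts in both groups, and C1qc had 0 in aged and up to 0.3389 CPM in aged+Ri libraries. The part of these cells in the result was not tested. Psme2 (PA28 beta) was at 206.7, 168.9 and 240.9 CPM with the inhibitor, all below its lowest aged value of 260.4 (log2 -0.41 ± 0.35, edgeR adjusted p = 0.818). Its partner Psme1, at 389, 295 and 330.3 CPM, overlapped with the aged group (log2 0.10). Reads of Psme2 may be shared with its near copy Psme2b, and 8 of 9 libraries had a non-whole count for it.

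Within batch 1 (1 library each) the median change with the inhibitor was 0.895 for regulatory, 0.0931 for core and -0.371 for immunoproteasome genes. Within batch 2 (aged 2 against aged+Ri 2 and 3) it was 0.665, -0.319 and -0.21. The regulatory median was between 0.326 (without aged 1) and 0.685 (without aged 3) when single libraries were left out. The core median was between -0.23 (without aged+Ri 3) and 0.00805 (without aged+Ri 2), so its sign turned without aged+Ri 2. The inhibitor was also accompanied by a lower share of mitochondrially encoded message, 15710 to 25620 CPM against 25690 to 35370 in aged cells, and by more of the 11 erythroid markers, 760.8 to 1413 against 26.63 to 80.74, with Car1 at 0 counts. Their part in the result was not tested.

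Because the regulatory and core medians differed here, the ratio of their summed counts was taken within each library, which needs no scaling between libraries. It was chosen after the values were seen and is given with no test. The ratio of regulatory to core counts was 0.28, 0.313 and 0.365 in young, 0.319, 0.284 and 0.455 in aged, and 0.552, 0.474 and 0.481 in aged+Ri libraries. Young and aged libraries overlapped, and each aged+Ri library was above all 6 others, by a narrow margin over aged 3. For the ATPases alone the ratio to core was 0.126, 0.125 and 0.114 in young, 0.129, 0.119 and 0.167 in aged, and 0.243, 0.182 and 0.204 in aged+Ri libraries. The non-ATPase ratio overlapped, with 0.288 in aged 3 and 0.278 in aged+Ri 3. Between the alpha and the beta ring the ratio was 1.2 ± 0.118 in young, 1.13 ± 0.106 in aged and 1.19 ± 0.0306 in aged+Ri cells (SD, n = 3), with no order between the groups.

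**Figure D5:**
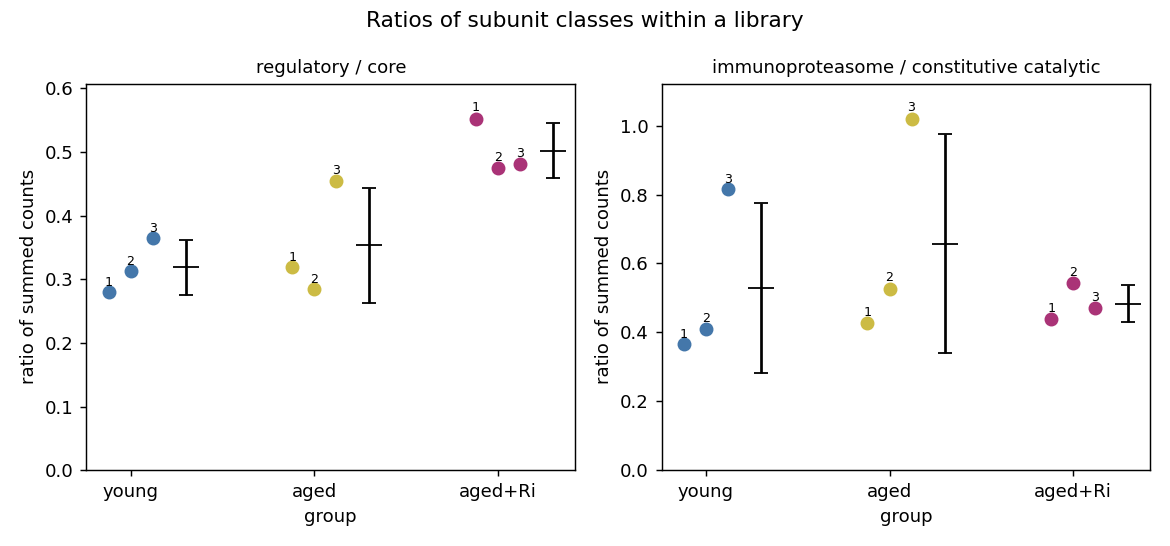
Ratio of summed counts of regulatory to core subunits (left) and of immunoproteasome to constitutive catalytic subunits (right) in each library (numbered points), with the mean and SD of 3 libraries in black. On the left the aged+Ri libraries, from 0.474 to 0.552, lie above all others; on the right young 3 (0.815) and aged 3 (1.02) lie far above the rest.

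Each immunoproteasome subunit replaces 1 constitutive subunit at the same site, so the exchange was read as a ratio within a library. Psmb8 to Psmb5 stood at 6.1, 1.82 and 5.05 in young, 2.01, 2.72 and 3.14 in aged, and 1.89, 1.84 and 2.03 in aged+Ri libraries. Psmb9 to Psmb6 was 0.053, 0.0997 and 0.217 in young, 0.107, 0.127 and 0.246 in aged, and 0.091, 0.149 and 0.115 in aged+Ri libraries. Psmb10 to Psmb7 was 1.09, 1.58 and 0.905 in young, 1.09, 1.37 and 2.51 in aged, and 0.957, 1.3 and 0.991 in aged+Ri libraries. All groups overlapped in all 3 pairs. Over the aged+Ri libraries the SD of the log2 ratio was 0.0737 for Psmb8/Psmb5, 0.355 for Psmb9/Psmb6 and 0.242 for Psmb10/Psmb7. In each pair it was smaller than in the young and the aged group. With the inhibitor against aged cells the log2 ratio differed by -0.428 for Psmb8/Psmb5, -0.37 for Psmb9/Psmb6 and -0.534 for Psmb10/Psmb7 (two-sided exact permutation p = 0.2, 0.5 and 0.2; adjusted over 9 tests 0.6, 0.643 and 0.6). With single libraries left out, these differences ran from -0.607 to -0.286, from -0.61 to -0.0119 (without aged 3) and from -0.789 to -0.188 (without aged 3). For aged against young cells the differences were -0.569, 0.518 and 0.422 (exact permutation p = 0.4 for each, adjusted 0.6). They ran from -1.1 (without young 2) to -0.233 (without young 1), from 0.0272 (without young 1) to 1.04 (without young 3) and from 0.0765 (without aged 3) to 0.677. With 3 against 3 libraries the exact permutation test cannot go below p = 0.1. Psmb9 shares 212 exon bases with Tap1 on the opposite strand and Psmb7 shares 405 with Nek6, so these ratios may include reads of the neighbours.

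Aged cells with the inhibitor were also set against young cells, a comparison that shares libraries with both others. The regulatory particle had the largest class median, 1.04 with 18 of 20 positive, and the ATPases 1.35 with 6 of 6. The median was 0.236 for core, 0.161 for immunoproteasome and 0.577 for activator genes, and -0.241 over all genes tested. edgeR called 0 of 43 members, against 1.45% of all genes (219), and the smallest member's adjusted p was 0.0681 for Psmc2. At an unadjusted p under 0.05, 16 members were higher and 1 (Psmb11) lower, against 9.06% and 14.4% of all genes. In 17 members all aged+Ri libraries were above all young ones and in 1 below, against 12.4% and 19.9%.

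The 5 members with the smallest p were Psmc2, Psmc5, Psmb4, Psmd5 and Psmc4. Psmc2 had a log2 change of 1.56 ± 0.40, Psmc5 of 1.75 ± 0.46 (edgeR adjusted p = 0.0719), Psmd5 of 1.66 ± 0.45 (0.0759) and Psmc4 of 1.88 ± 0.52 (0.0787). In each of these 4 genes the lowest aged+Ri library lay above the highest young one, as it did for Psmb4 (log2 1.22 ± 0.33, edgeR adjusted p = 0.0756). Their calls depended on the tool and on single libraries. DESeq2 called 6 members (Psmb4, Psmc2, Psmc4, Psmc5, Psmd12 and Psmd5), against 12.1% of all genes, and limma-voom called 5 (Psmb4, Psmc4, Psmc5, Psmd4 and Psmd5), against 4.14%. Without young 3, edgeR called 5 members (Psmc4, Psmc5, Psmd4, Psmd5 and Psmd8), and without aged+Ri 2 it called Psmc2. Over all genes, edgeR called between 18 and 532 with single libraries left out, against 219 with every library. Within batch 2 the medians were 1.23 for regulatory, 0.631 for core and 0.571 for immunoproteasome genes.

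Genes that build, feed or control the proteasome were read from 4 further lists. Of 22 tested assembly factors and associated proteins, 1 passed: Adrm1 (Rpn13), a ubiquitin receptor of the regulatory particle whose symbol falls outside the rule for members, rose in aged+Ri against young cells. It was at 24.06, 29.36 and 30.37 CPM in young, 56.57, 40.29 and 113.6 in aged, and 147.3, 106.4 and 116.9 in aged+Ri libraries (log2 2.15 ± 0.43, edgeR adjusted p = 0.03). That call was lost without young 1 (0.0742), without aged+Ri 1 or aged+Ri 3 (0.112 each), with only these 2 groups in the fit (0.0614) and with batch as a covariate (0.0528). Txnl1, a thioredoxin-like protein that binds the regulatory particle, was at 264, 232.8 and 243.5 CPM in aged and 593.2, 317.3 and 457.4 in aged+Ri libraries (log2 0.89 ± 0.34, edgeR adjusted p = 0.465). None of the factors that assemble the core passed the test with the inhibitor. Pomp, which matures the beta ring, was at 379.7, 403.2 and 300.7 CPM in aged and 171, 246.9 and 296 in aged+Ri libraries (log2 -0.60, edgeR adjusted p = 0.595), and Psmg1, a chaperone of the alpha ring, at 79.63, 68.95 and 112.1 against 34.03, 49.85 and 48.6 (log2 -0.98 ± 0.45, edgeR adjusted p = 0.549). Both were below the aged group in all 3 libraries. Psmg3, another chaperone of the alpha ring, differed the other way, at 20.55, 27.3 and 36.94 CPM in aged and 38.52, 34.43 and 47.61 in aged+Ri libraries, with an overlap (log2 0.51).

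Of 21 tested ubiquitin and p97 genes, 1 passed in aged+Ri against young cells and 0 in the other comparisons. Ubb, a polyubiquitin gene, rose from 2493, 1576 and 2895 CPM in young to 8973, 6193 and 10270 in aged+Ri libraries (log2 1.87 ± 0.29, edgeR adjusted p = 0.016), and without aged+Ri 3 its adjusted p was 0.0752. The aged libraries were at 4877, 6105 and 7018 CPM, above all young values and overlapping with aged+Ri ones (aged against young log2 1.37 ± 0.28, edgeR adjusted p = 0.129). Rps27a, a fusion of ubiquitin and a ribosomal protein, was lower in every aged+Ri library than in any young one (log2 -0.93 ± 0.27, edgeR adjusted p = 0.0891).

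Of 11 tested genes around NRF1, 0 passed in any comparison. Nfe2l1 itself was at 1.658, 10.31 and 14.83 CPM in young, 22.4, 14.92 and 19.71 in aged, and 36.27, 22.94 and 14.85 in aged+Ri libraries, so with the inhibitor the values overlapped both with aged ones and nearly with young 3. Nfe2l2, which encodes the related factor NRF2, was at 190.5, 224.8 and 220 CPM in aged and 416.7, 342.5 and 303.1 in aged+Ri libraries (log2 0.74 ± 0.32, edgeR adjusted p = 0.503). Ngly1, the glycanase that processes NRF1, was at 27.52, 61.47 and 51.87 CPM in young and 92.81, 132.9 and 101.1 in aged libraries (log2 1.21 ± 0.38, edgeR adjusted p = 0.203).

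Of 22 tested companions of the immunoproteasome in interferon signalling and MHC class I presentation, 0 passed in any comparison, and their median change was 0.0904 in aged against young and -0.162 in aged+Ri against aged cells. Irf1 and Nlrc5, which drive immunoproteasome and class I genes, had log2 changes of -0.40 and 0.21 in aged against young cells and overlapping groups. The peptide transporter genes were low with the inhibitor: Tap2 was at 17.43, 14.09 and 33.7 CPM in aged and 4.38, 10.93 and 3.473 in aged+Ri libraries (log2 -1.79 ± 0.72, edgeR adjusted p = 0.479), and Tap1, the neighbour of Psmb9, at 62.24, 53.16 and 54.68 against 30.38, 50.18 and 18.86 (log2 -0.77, edgeR adjusted p = 0.63). B2m, the class I light chain, overlapped between all groups.

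Across the 9 libraries the members varied together to differing degrees. The Pearson correlation of a member's log2 level with the mean of the other members had a median of 0.652, with 27 of 43 above 0.5 and 4 below 0 (Psmb11, Psmd3, Psmd10 and Psma2). These are descriptions over 9 libraries that share depth and group differences. Psmd3 and Psmd10 are the 2 regulatory members with negative changes under the inhibitor. Those changes enter the correlation, so its sign in these genes is not a separate result.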

How the data were processed

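The authors deposited 1 table of estimated counts, 21939 genes by 9 libraries, in which most values are whole and the rest are fractions; they were rounded to whole numbers here. Per the labels' protocols, cDNA was made with SMART-Seq v4 and libraries with Nextera XT. Per the submitters' processing notes, featureCounts, STAR 2.7.0, cutadapt 1.18, SAMtools 1.14 and R 4.2.0 were used with GRCm38, and whether strand was counted is not given in the sources used here.

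Genes were kept by edgeR's filterByExpr (15127), scaled by TMM and fitted in 1 quasi-likelihood model of group means (edgeR 4.0.16, robust glmQLFit and glmQLFTest, two-sided, 6 residual degrees of freedom, R 4.3.3). Adjusted p-values are Benjamini-Hochberg over all genes tested, with a threshold of 0.05. CPM values are TMM-normalised, and sums over lists are CPM of the library total. At these depths 3 counts correspond to 0.0414 to 0.0873 CPM. Ratios were taken as log2 of counts with a pseudocount of 0.5 and tested by exact permutation (two-sided, 20 assignments). Batch values are log2 differences between libraries of 1 batch. Transcript lengths and gene positions come from the GENCODE annotation of GRCm38, and levels per kilobase use 1 principal transcript per gene.

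The members, lists, tests and alternatives were chosen with earlier results of these data known. Members were named with values in every library if they are immunoproteasome, constitutive catalytic or PA28 genes or among up to 4 per class and comparison with the smallest unadjusted p; of each companion list, up to 4 per comparison could be named, plus Pomp, Nfe2l1, Ubb, Tap1, B2m, Nlrc5 and Irf1. Some genes that the rule covers are not reported here. Other members and markers named were chosen after their values were seen. Of the lists, Paaf1, Trac, Ighm and Igkc were not used here. The model was tested on counts simulated for aged against young, with known changes in 100 genes of each size. It called 1% of the genes with a log2 change of 1 and 63% of those with a change of 3. The sign was right in 97% and 100%, and 4 unchanged genes were called. A member that was not called is therefore not shown to be unchanged. Alternatives were DESeq2 1.42.0, its size factors in edgeR, limma-voom (limma 3.58.1), 2 other filters, fits without the group not compared, a replicate block, the batch as a covariate, a pseudocount of 5 and each library left out; young 1 alone as the young group and the newer edgeR method were added after the data were seen.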

Additional observations from a re-analysis of the deposited data

How the results depend on the processing

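The number of genes called over the whole table depended on the tool and on single libraries. For aged against young (5 genes) the count was 744 with DESeq2, 18 with limma-voom, 20 with no filter, 1 with only the 2 groups, 21 with edgeR's newer method and 292 with young 1 alone as the young group. For aged+Ri against aged (0 genes) it was 321, 55, 11, 26, 5 and 25 in that order, and 16 with batch as a covariate. For aged+Ri against young (219 genes) it was 1829 with DESeq2, 626 with limma-voom, 51 with only the 2 groups, 463 with the newer method and 645 with young 1 alone. With single libraries left out the counts were 2 to 80, 0 to 6 and 18 to 532. Members called in aged against young were 0, 1 with DESeq2, and 0 to 1 with libraries left out (Psmc5, without young 3). In aged+Ri against aged they were 0 under every alternative run. In aged+Ri against young they were 0, 6 with DESeq2, 5 with limma-voom, 3 with no filter, 3 with batch (Psmc1, Psmc4 and Psmd8), 4 with young 1 alone, and 0 to 5 with libraries left out. The labels do not say whether samples of the same number are paired. Of 9 same-numbered pairs 1 had a correlation of deviations over 0.1, and 5 of 9 libraries correlated best with their own number. With 3 libraries a group these correlations cannot decide it. With the replicate number as a block, 2 genes were called in aged+Ri against aged, and 3 members (Psmc4, Psmc5 and Psmd5) in aged+Ri against young.

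Class medians of the log2 change kept their size within the spread between replicates in 274 of 285 recomputed values. With batch as a covariate the activator median in aged against young was 1.07, and in aged+Ri against young the medians were 0.511 for core, 1.39 for regulatory, 0.563 for immunoproteasome and 1.03 for activator genes. With young 1 alone they were 0.755 for regulatory and 1.17 for immunoproteasome genes in aged against young, and 0.248 for activators in aged+Ri against young. With libraries left out, the core median was 0.172 to 0.564 in aged against young, and the activator median 0.495 to 1.02 there and 0.488 to 0.857 in aged+Ri against young. The immunoproteasome median was 0.291 to 1.12 in aged against young, -0.666 to -0.261 in aged+Ri against aged, and -0.0913 to 0.421 in aged+Ri against young. The log2 ratios in aged+Ri against young changed sign with libraries left out: Psmb9/Psmb6 ran from -0.343 to 0.674 and Psmb10/Psmb7 from -0.29 to 0.113. The cause was not tested. Of 855 recomputed changes of named genes, 812 kept their side of the threshold, 37 passed it newly and 6 lost it. Psmb11 had counts near 0 in every library.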
